A study of Mus musculus with 6 samples.

Results

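The collagen genes were taken as every gene of the table whose symbol is Col, a number, the letter a and a number, which gave 44 of 21956 genes. They were split by the kind of assembly that their protein chains form into 11 fibrillar, 6 basement membrane, 6 microfibrillar and 21 other members. Messenger RNA of the livers of 6 mice was sequenced in bulk. The 3 knockout mice were Stingfl/fl Cdh5-Cre+, so that floxed Sting alleles met a Cre recombinase driven by Cdh5, the gene of the endothelial junction protein VE-cadherin. The 3 control mice were Stingfl/fl Cdh5-Cre- littermates with the same floxed alleles and no Cre. Mice of both groups ate chow until 8 weeks of age and then CDAHFD, a high-fat diet that lacks choline and replaces protein by defined amino acids and so produces steatohepatitis, for 10 weeks. Which cells lost Sting was not measured. Cre was carried by the knockout mice alone, so that an effect of Cre and one of the deletion cannot be told apart.

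Collagens are made of 3 chains wound into a helix of Gly-X-Y repeats and secreted into the extracellular matrix. Fibrillar collagens form the bands of a liver scar and come mainly from activated stellate cells and portal fibroblasts, basement membrane collagens form the type IV sheets under ducts and vessels, and microfibrillar type VI collagens form beaded filaments around cells. Hepatocytes make few collagens, with type XVIII as the main exception. The comparison asks whether these genes differ between livers with and without the endothelial deletion under a scarring diet.

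No collagen gene passed edgeR's adjusted test over all genes, and DESeq2 called 2, Col4a5 and Col4a4, beside 0.902% of all genes. DESeq2 called 0 collagens when knockout replicate 2 or 3, or control replicate 1 or 2, was left out. Of the 28 collagens tested, 25 had a log2 fold change below 0, beside 48.8% of all genes. The median change was -0.66, and -0.18 without control replicate 2. It was -0.71 without control replicate 1 and -0.87 without control replicate 3. Collagens summed to 665, 695 and 813 TPM in knockout livers, against 886, 1660 and 690 TPM in control livers, where TPM is a transcript level corrected for gene length and library size. Control replicate 2 was the high library. The scar collagens Col1a1, Col1a2 and Col3a1 were all highest in that library. The low-level chains Col4a4, Col4a5, Col8a1 and Col12a1 had all 3 knockout libraries below all control libraries, with control replicate 2 (4 of the 28, beside 9.14% of all genes) and without it (where Col5a3 joined them, beside 12.7%). Col18a1, the most abundant collagen of these livers, was the 1 member of the 28 whose knockout libraries all stood above all control libraries, beside 7.25% of all genes.

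Library totals were 18528919 to 20414468 counts in knockout and 16704663 to 21025466 counts in control livers. Control replicate 2 stood apart. Its mean correlation with the other libraries was 0.953 against 0.966 to 0.974 for the others. TMM factors, which correct library size for composition, were 0.922 to 0.941 in knockout livers, and in control replicates 1 to 3 they were 1.01, 1.26 and 0.975. Sting1, the gene of the floxed alleles, had 106, 114 and 80 counts in knockout and 240, 365 and 226 counts in control livers, and which exon is deleted was not known here. The labels name both liver and sinusoidal endothelial cells; albumin took 9.6% to 10.9% of counts in knockout and 6.91% to 9.61% in control livers, so that the values are those of whole liver. In whole liver, fewer cells of a type and less RNA per cell cannot be told apart. The labels call the 3 libraries of a group biological replicates.

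The start regions of 5 members are shown because the results below turn on them. Col4a4 and Col4a5 are the type IV chains with the smallest p, Col8a1 has the smallest p of the family, Col1a2 stands for the scar collagens, and Col4a1 shares its start region with Col4a2. Each run is the RefSeq window of GRCm38.p6 from 250 bases before to 50 bases after an annotated start, on the strand of the gene. The windows lie at chr1:82586800-82587099 (minus strand, Col4a4), chrX:141475169-141475468 (plus strand, Col4a5), chr16:57754688-57754987 (minus strand, Col8a1), chr6:4505368-4505667 (plus strand, Col1a2) and chr8:11312777-11313076 (minus strand, Col4a1). Capitals mark every match on either strand to 1 of 6 motifs, with overlapping matches counted: TATAAA of the TATA box, CCAAT of the box bound by NF-Y, GGGCGG of the GC box bound by Sp1, CAGACA of a SMAD-binding element, TGANTCA of an AP-1 site and GGAATG of a TEAD site. Such a match describes the letters and is no site or cause.
Col4a4: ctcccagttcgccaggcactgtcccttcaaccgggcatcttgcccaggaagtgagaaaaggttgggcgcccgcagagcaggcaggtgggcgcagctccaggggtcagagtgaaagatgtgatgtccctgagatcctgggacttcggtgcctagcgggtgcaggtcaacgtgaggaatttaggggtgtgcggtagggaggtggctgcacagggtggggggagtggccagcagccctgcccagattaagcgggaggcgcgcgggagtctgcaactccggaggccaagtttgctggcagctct
Col4a5: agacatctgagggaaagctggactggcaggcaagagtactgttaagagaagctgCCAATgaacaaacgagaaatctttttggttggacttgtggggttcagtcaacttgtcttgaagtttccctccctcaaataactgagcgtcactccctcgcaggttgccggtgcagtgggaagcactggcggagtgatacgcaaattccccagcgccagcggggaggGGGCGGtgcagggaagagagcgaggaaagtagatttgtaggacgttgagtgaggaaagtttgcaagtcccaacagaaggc
Col8a1: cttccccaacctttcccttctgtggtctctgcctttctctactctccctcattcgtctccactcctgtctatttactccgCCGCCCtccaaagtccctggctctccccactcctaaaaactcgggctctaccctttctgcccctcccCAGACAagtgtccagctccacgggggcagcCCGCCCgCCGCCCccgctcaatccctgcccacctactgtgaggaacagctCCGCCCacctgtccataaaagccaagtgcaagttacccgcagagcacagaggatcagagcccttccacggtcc
Col1a2: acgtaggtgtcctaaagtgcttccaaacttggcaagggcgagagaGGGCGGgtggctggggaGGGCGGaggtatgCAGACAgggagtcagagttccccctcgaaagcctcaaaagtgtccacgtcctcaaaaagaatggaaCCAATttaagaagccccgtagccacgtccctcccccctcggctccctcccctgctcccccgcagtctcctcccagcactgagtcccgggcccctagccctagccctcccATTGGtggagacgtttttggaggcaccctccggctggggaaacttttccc
Col4a1: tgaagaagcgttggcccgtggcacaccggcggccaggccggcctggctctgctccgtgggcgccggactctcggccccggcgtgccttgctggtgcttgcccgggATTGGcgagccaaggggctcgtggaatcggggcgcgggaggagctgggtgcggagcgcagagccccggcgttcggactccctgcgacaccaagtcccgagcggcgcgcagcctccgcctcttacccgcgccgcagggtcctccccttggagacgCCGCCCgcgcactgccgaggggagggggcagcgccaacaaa

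A GGGCGG stood in 17 of the 24 windows that belong to 22 tested collagens, against 35.7% of all 32851 windows of the table. CCAAT stood in 7 of the 24, against 37.4% of all windows, and CAGACA in 5, against 21%. TATAAA was in 2 windows (Col13a1 and Col3a1), against 13.6% of all, GGAATG in 4, against 14.7%, and TGANTCA in 1 (Col6a1), against 7.81%. The Col1a2 window held 2 CCAAT, 2 GGGCGG and 1 CAGACA. The Col8a1 window held 4 GGGCGG and 1 CAGACA, the Col4a5 and Col4a1 windows held 1 CCAAT and 1 GGGCGG each, and the Col4a4 window held none of the 6 sets of letters. Col4a1 and Col4a2 start 21 bases apart on opposite strands of chromosome 8, and their windows share 78 bases. Col4a3 and Col4a4 start 72 bases apart on opposite strands of chromosome 1, and Col4a5 and Col4a6 start 1309 bases apart on the X chromosome.

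Of the 44 members, 28 had enough counts to be tested: 7 fibrillar, 6 basement membrane, 5 microfibrillar and 10 other. In 6 of these 28 fewer than 3 knockout libraries, and in 3 of them fewer than 3 control libraries, reached the level that the filter on low counts asks for. Another 6 had 0 counts in every library: the cartilage collagens Col2a1, Col9a1 and Col11a1, and Col6a4, Col19a1 and Col26a1. A count of 0 allows up to 0.147 to 0.162 CPM, the counts of a gene scaled to library size, in a knockout library and 0.143 to 0.18 CPM in a control library, for counting error only. The other 10 had between 1 count (Col10a1) and 50 counts (Col11a2) over the 6 libraries and were not tested. They included Col7a1 of the anchoring fibrils and Col17a1 of the hemidesmosome.

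Fold changes came from edgeR's quasi-likelihood test over all 13197 genes that passed the filter, as knockout over control on the log2 scale. With Benjamini-Hochberg adjustment at 0.05, 0 collagens passed, beside 0% of all genes, and the smallest adjusted p of any gene was 0.357. Of the 28 tested collagens 25 had a log2 fold change below 0, beside 48.8% of all genes, and their median was -0.66 against 0.01 for all genes. At an unadjusted p under 0.05 there were 8 lower collagens, beside 7% of all genes, and 0 higher ones, beside 3.75% of all genes. These 8 were Col8a1, Col4a4, Col4a5, Col12a1, Col6a3, Col4a6, Col3a1 and Col1a2. DESeq2 called 2 of the 28, Col4a5 and Col4a4, beside 0.902% of all genes. At an unadjusted p under 0.05 it had 12 lower collagens, beside 7.17% of all genes, and 1 higher, Col18a1, beside 4.46% of all genes.

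**Figure D1:**
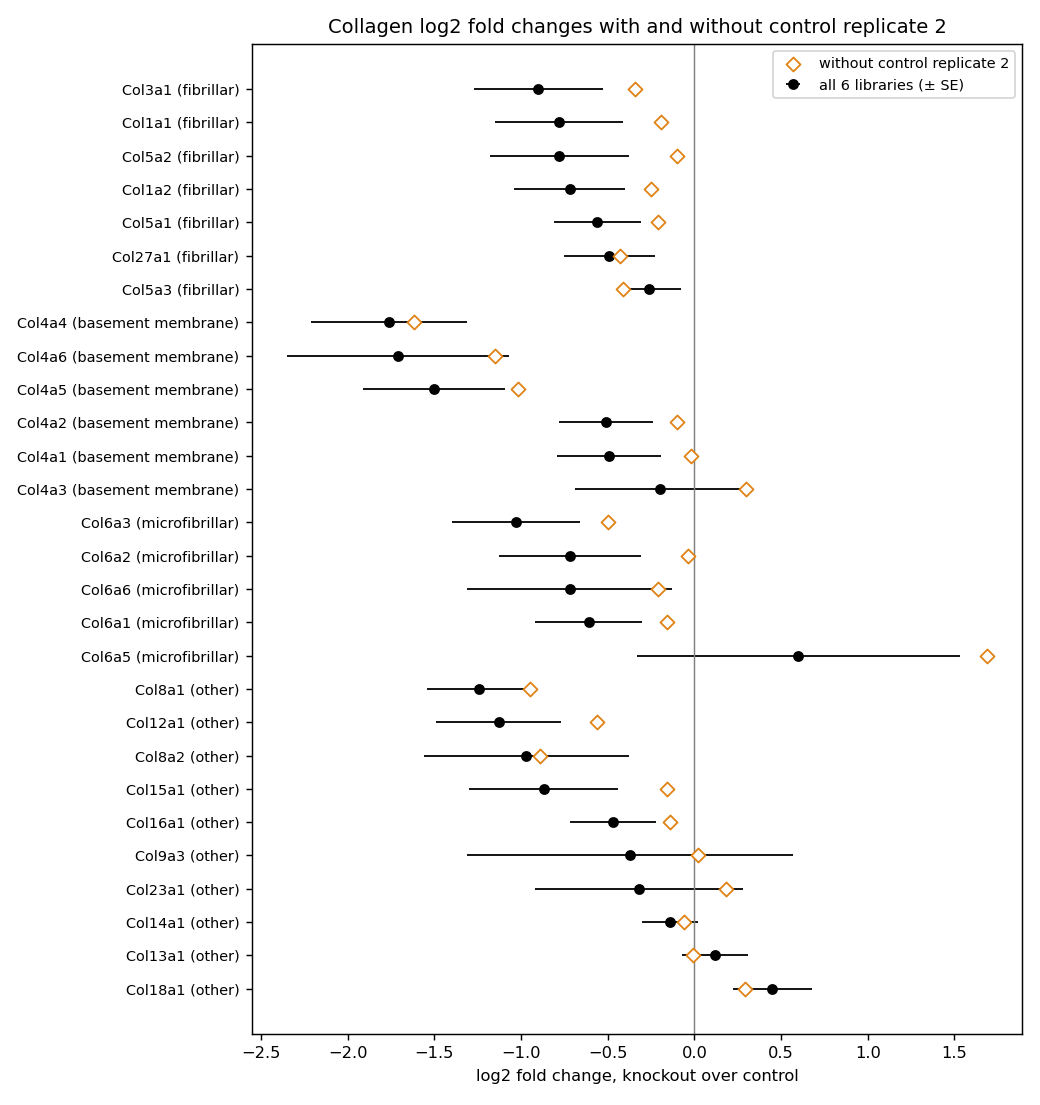
Log2 fold change of the 28 tested collagens, knockout over control, by class (rows); filled points with bars are edgeR estimates ± SE over all 6 libraries and open diamonds are estimates without control replicate 2. Most diamonds lie nearer to 0 than their points (the median is -0.18 against -0.66), whereas Col4a4, Col4a5, Col4a6 and Col8a1 stay at -0.95 or below.

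Control replicate 2 had the highest CPM of the 6 libraries in 20 of the 28 tested collagens, beside 25.3% of all genes. Control replicate 3 lay within the knockout range in 17 of the 28, beside 57.6% of all genes, above it in 5, beside 22.5%, and below it in 6, beside 20%. Control replicate 1 lay above the knockout range in 20 of the 28, beside 27.3% of all genes. Without control replicate 2, 23 of the 28 were below 0, beside 47.7% of 13283 genes, and the median was -0.18. There were then 5 lower collagens at an unadjusted p under 0.05, beside 4.13% of all genes: Col4a4, Col8a1, Col4a5, Col12a1 and the type V chain Col5a3. Without control replicate 3 the count was 17 of 29 collagens tested, beside 8.63% of 13458 genes, and the median was -0.87. No collagen passed the adjusted test of edgeR in either case, beside 0.0151% of all genes without control replicate 2 and 0.0149% without control replicate 3.

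**Figure D2:**
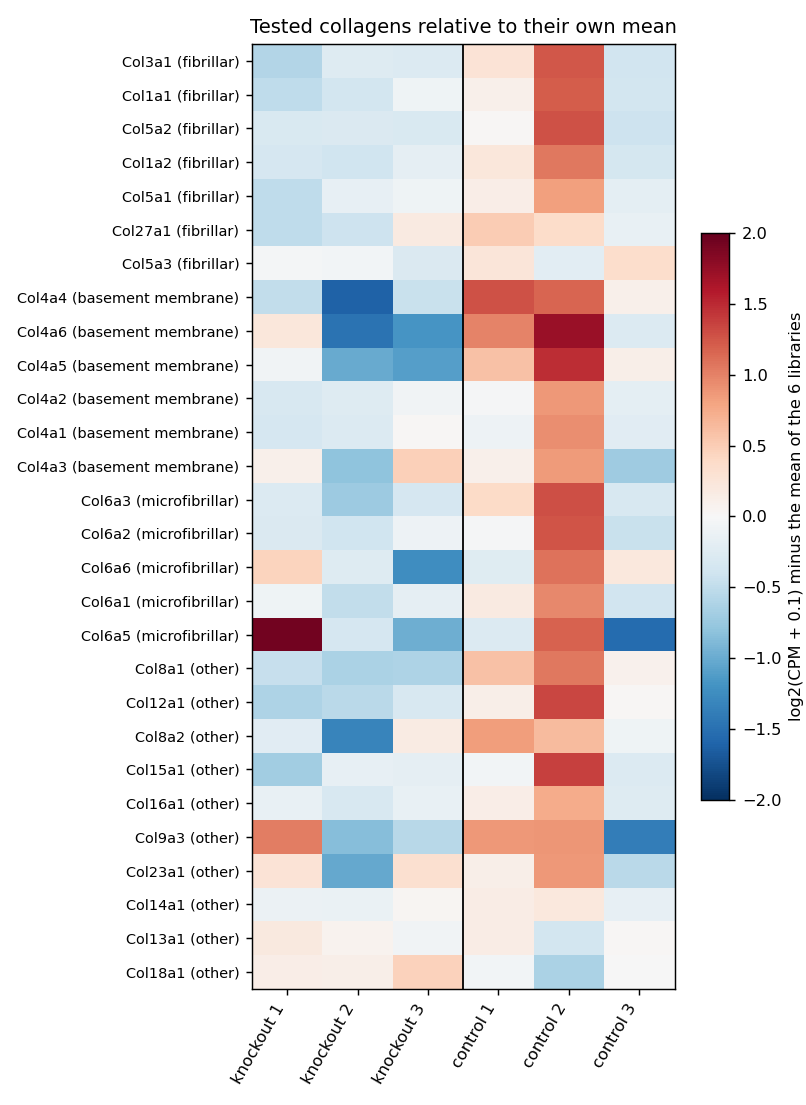
Colour gives log2(CPM + 0.1) of each tested collagen (rows, by class) in each library (columns, knockout left of control) minus the mean of the 6 libraries. The column of control replicate 2 is highest for 20 of the 28 genes, and control replicate 3 looks much like the knockout columns in most fibrillar and microfibrillar genes.

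The fibrillar class summed to 178, 191 and 208 TPM in knockout livers, against 324, 782 and 203 TPM in control livers. The knockout libraries lay close together, and control replicate 3 fell among them. All 7 tested fibrillar members had log2 fold changes below 0, with a median of -0.72 and of -0.25 without control replicate 2. Their share of all collagen TPM was 26.7%, 27.5% and 25.6% in knockout livers, against 36.6%, 47.2% and 29.4% in control livers, so that the groups did not overlap. This share also depends on Col18a1, the large non-fibrillar part of the total. With Col18a1 left out, a choice made after its values were seen, the fibrillar share was 46.1%, 47.0% and 45.9% in knockout livers, against 53.2%, 55.4% and 48.6% in control livers.

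Col3a1, the chain of type III collagen and the most abundant fibrillar transcript, had 261, 328 and 327 CPM in knockout livers, against 476, 926 and 300 CPM in control livers. Control replicates 1 and 2 were above every knockout library and control replicate 3 was not. The log2 fold change was -0.90 ± 0.37 (SE; edgeR unadjusted p = 0.0405, Benjamini-Hochberg adjusted p = 0.447), and -0.34 without control replicate 2. Col1a2, a chain of type I collagen, had 126, 120 and 141 CPM in knockout livers, against 185, 329 and 124 CPM in control livers. In log2 fold change it was at -0.72, and at -0.25 without control replicate 2. Col1a1, its partner chain, had 85.0, 93.7 and 113 CPM in knockout livers, against 129, 279 and 93.6 CPM in control livers. Both type I chains thus overlapped between the groups in control replicate 3 only. The log2 fold change of Col1a1 was -0.78, and -0.19 without control replicate 2.

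The fibril-nucleating type V chain Col5a1 had 23.6, 30 and 31.8 CPM in knockout livers, against 36.9, 59.6 and 29.4 CPM in control livers. At a log2 fold change of -0.56, its groups overlapped in control replicate 3. The type V chain Col5a2 had a log2 fold change of -0.78, and -0.10 without control replicate 2. Col5a3 ran otherwise: control replicate 2, at 12.2 CPM, was the lowest control library, and the log2 fold change was -0.26 with it and -0.41 without it. Col27a1, a fibrillar collagen known from cartilage, had a log2 fold change of -0.49. The TPM ratio of Col1a1 to Col1a2 was 0.679 ± 0.0662 in knockout and 0.693 ± 0.0656 in control livers (SD, n = 3 each). By library it ran from 0.604 in knockout replicate 1 to 0.763 in control replicate 2, and the groups overlapped.

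**Figure D3:**
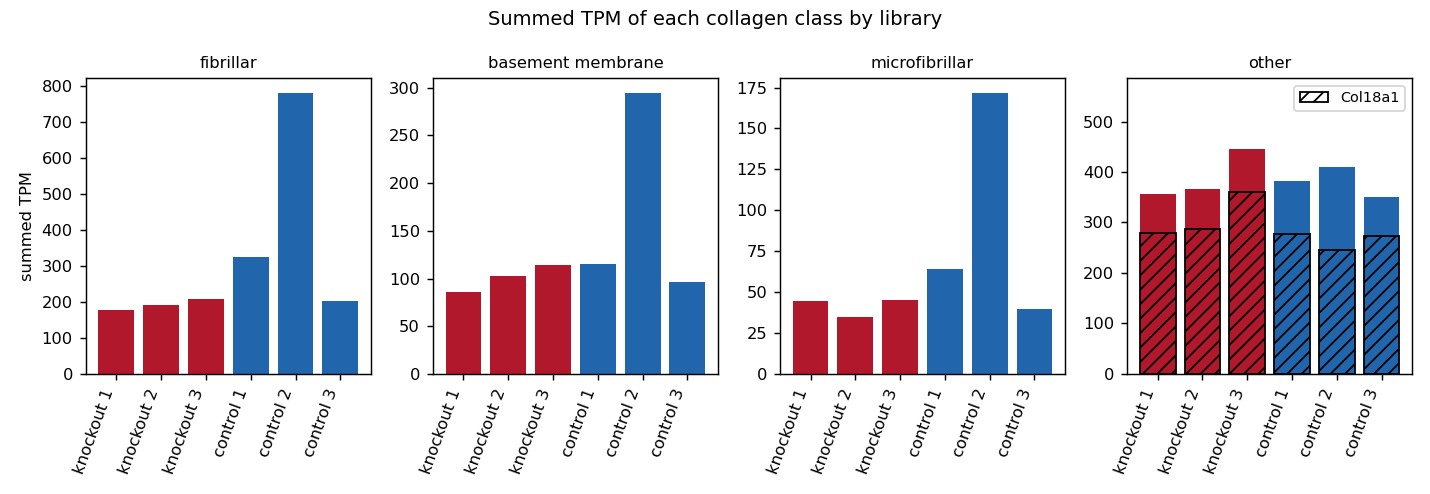
Summed TPM of each collagen class (panels, each with its own axis from 0) in each of the 6 libraries, with the Col18a1 share of the other class hatched. Control replicate 2 is the tallest bar of the fibrillar (782 TPM), basement membrane (295 TPM) and microfibrillar (172 TPM) panels, and in the other class knockout replicate 3 is tallest (446 TPM).

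The basement membrane class holds the 6 type IV chains, which assemble as α1-α1-α2 in nearly all basement membranes and as α3-α4-α5 or α5-α5-α6 in particular ones, such as that of the kidney glomerulus. All 6 had log2 fold changes below 0, with a median of -1.01, and 5 of the 6 without control replicate 2, with a median of -0.56. The split within the class was wide: without control replicate 2 the ubiquitous chains Col4a1 and Col4a2 lay near 0, and Col4a4 and Col4a5 were at -1.62 and -1.02 on the log2 scale.

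Col4a1 had 169, 177 and 217 CPM in knockout livers, against 200, 406 and 183 CPM in control livers. Col4a2 had 88.1, 92.1 and 105 CPM in knockout livers, against 108, 201 and 96.3 CPM in control livers. Apart from control replicate 2 the groups lay in about the same range for both genes. The log2 fold change of Col4a1 was -0.49, and -0.02 without control replicate 2; that of Col4a2 was -0.51, and -0.10. The TPM ratio of Col4a1 to Col4a2 was 2.97 ± 0.31 in knockout and 2.58 ± 0.108 in control livers (SD, n = 3 each), and the libraries of the groups overlapped.

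Col4a4 (ENSMUSG00000067158, GRCm38 chr1:82448423-82586849, minus strand) had 28, 11 and 28 counts in knockout livers, against 105, 103 and 47 counts in control livers. In CPM these were 1.49, 0.631 and 1.54 in knockout livers, against 5.31, 4.91 and 2.29 in control livers. The groups did not overlap, and control replicates 1 and 2 were both high. Col4a4 had a log2 fold change of -1.76 ± 0.45 (SE; edgeR unadjusted p = 0.0037, Benjamini-Hochberg adjusted p = 0.367), and -1.62 without control replicate 2. DESeq2 gave an adjusted p of 0.0309 with all libraries and of 0.268 without control replicate 2, where it called 0 collagens, beside 0.415% of all genes.

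Col4a5 (ENSMUSG00000031274, GRCm38 chrX:141475385-141689234, plus strand), whose human gene is mutated in X-linked Alport syndrome, had 9.15, 4.70 and 4.40 CPM in knockout livers, against 14.5, 27.0 and 10.4 CPM in control livers. The groups did not overlap, though knockout replicate 1 came near to control replicate 3. Col4a5 had a log2 fold change of -1.50 ± 0.41 (SE; edgeR unadjusted p = 0.00594, Benjamini-Hochberg adjusted p = 0.367), and -1.02 without control replicate 2. DESeq2 gave an adjusted p of 0.0269, and of 0.319 without control replicate 2. With each library left out in turn, the DESeq2 calls of both genes held without knockout replicate 1 and without control replicate 3. They were lost when any of the other 4 libraries was left out, where DESeq2 called 0 collagens in each case. Without knockout replicate 1 it called 3 collagens, all lower, beside 1.8% of all genes, and without control replicate 3 it called 8, all lower, beside 2.17% of all genes. Over these 6 fits DESeq2's adjusted p ranged from 0.00307 to 0.332 for Col4a4 and from 0.00135 to 0.34 for Col4a5.

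Groups that did not overlap, with the knockout lower, were found for 4 collagens, Col4a4, Col4a5, Col8a1 and Col12a1, beside 9.14% of all genes. With the knockout higher they were found for 1, Col18a1, beside 7.25% of all genes. Without control replicate 2 the 4 lower genes and Col5a3 did not overlap, beside 12.7% of all genes.

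Col4a6 and Col4a3, whose values were looked at after the rule for full values had left them out, complete the class. Col4a6 had 1.91, 0.516 and 0.659 CPM in knockout livers, against 3.33, 5.57 and 1.32 CPM in control livers, with overlap between knockout replicate 1 and control replicate 3. Col4a3 had 2.23, 1.15 and 2.91 CPM in knockout livers, against 2.22, 3.81 and 1.22 CPM in control livers, so that the groups overlapped throughout. Its log2 fold change was -0.20, and 0.30 without control replicate 2. The TPM ratio of Col4a4 to Col4a3, also chosen after the values were seen, was 0.564, 0.465 and 0.447 in knockout livers, against 2.02, 1.09 and 1.59 in control livers. These chains start from nearly the same place, and their ratio did not overlap between the groups. The counts are low, at 11 to 28 for Col4a4 and 20 to 53 for Col4a3 in knockout livers, and 563 of the 9967 exon bases of Col4a3 also belong to C430014B12Rik on the opposite strand, so that its reads are uncertain. Col4a4 and Col4a5 share no exon bases with another annotated gene. The TPM ratio of Col4a5 to Col4a1, chosen the same way, was 0.0397, 0.0195 and 0.0135 in knockout livers, against 0.0521, 0.0519 and 0.0463 in control livers. Control replicate 2 did not stand apart in this ratio, although it had the highest level of both genes.

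**Figure D4:**
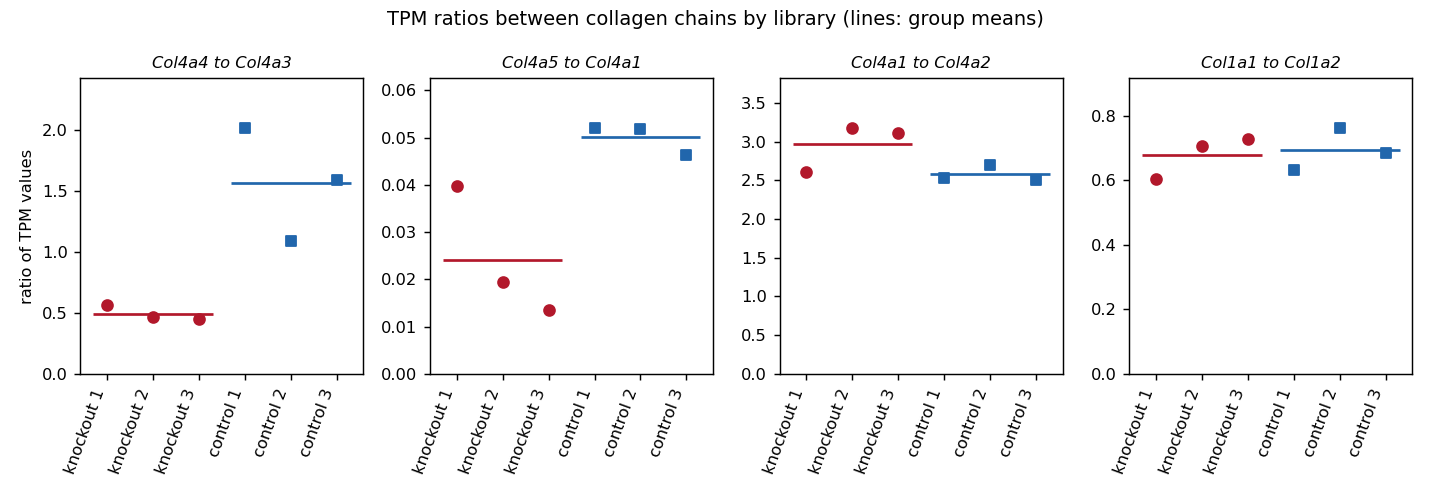
TPM ratios of pairs of collagen chains (panels, axes from 0) in each library, knockout left of control, with lines at the group means. The ratios of Col4a4 to Col4a3 and of Col4a5 to Col4a1, chosen after the values were seen, do not overlap between the groups. Those of Col4a1 to Col4a2 and of Col1a1 to Col1a2 do. Among ratios not drawn, Col3a1 to Col1a1 did not overlap either (3.28 to 3.79 in knockout, 3.85 to 4.61 in control livers). Nor did Col4a1 to Col3a1 (0.66 to 0.806 in knockout, 0.422 to 0.612 in control livers), and the other ratios computed overlapped.

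Markers of bile duct cells, which lie on a basement membrane, are given beside this class. The 10 listed cholangiocyte markers, none of them at 0 in all libraries, summed to 88.7 to 132 TPM in knockout and 124 to 372 TPM in control livers, and 9 of the 10 were below 0 (median -1.38 in log2 fold change). Without control replicate 2 their median was -0.92. The part of bile duct cells in the type IV values was not tested.

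The microfibrillar class summed to 44.5, 34.8 and 44.9 TPM in knockout livers, against 64.2, 172 and 39.6 TPM in control livers. Its 5 tested members had a median log2 fold change of -0.72, and -0.16 without control replicate 2. Col6a3, the long α3 chain of type VI collagen, had 73.2, 53.2 and 69.8 CPM in knockout livers, against 115, 217 and 70.9 CPM in control livers. Control replicate 3 lay between the knockout libraries, at their upper end. Col6a3 had a log2 fold change of -1.03 ± 0.37 (SE; edgeR unadjusted p = 0.023, Benjamini-Hochberg adjusted p = 0.402), and -0.50 without control replicate 2. Col6a1 had 44.1, 33.0 and 41.2 CPM in knockout livers, against 52.7, 91.2 and 35.9 CPM in control livers. Col6a2 had 23.7, 22 and 27.2 CPM in knockout livers, against 28.8, 69.9 and 21.4 CPM in control livers. These partner chains overlapped between the groups in control replicate 3. Their log2 fold changes were -0.61 for Col6a1 and -0.72 for Col6a2, and -0.16 and -0.04 without control replicate 2.

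The TPM ratio of Col6a3 to Col6a1 was 0.877, 0.856 and 0.986 in knockout livers, against 1.15, 1.37 and 0.947 in control livers, with overlap in control replicate 3. Col6a5, an alternative to the α3 chain, had 4.79, 0.918 and 0.55 CPM in knockout livers, against 0.96, 2.81 and 0.342 CPM in control livers. Only knockout replicate 1 was high among the knockout libraries, and the log2 fold change of 0.60 became -0.90 without it. Col6a6 had a log2 fold change of -0.72 at 6 to 43 counts a library.

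The other collagens were led by Col18a1, whose protein carries the endostatin fragment at its end. It had 821, 819 and 1030 CPM in knockout livers, against 721, 483 and 748 CPM in control livers. Every knockout library was above every control library, and control replicate 2 was the lowest. The log2 fold change was 0.45 ± 0.23 (SE; edgeR unadjusted p = 0.0814, Benjamini-Hochberg adjusted p = 0.515), and 0.29 without control replicate 2. It was 0.27 with no scaling factor and 0.21 on the log2(TPM + 1) scale. In TPM the levels of Col18a1 were 309 ± 44.3 in knockout and 265 ± 16.5 in control livers (SD, n = 3 each). It supplied 42.0%, 41.4% and 44.3% of all collagen TPM in knockout livers, against 31.2%, 14.8% and 39.5% in control livers. The 10 hepatocyte markers listed, none at 0 in all libraries, summed to 117000 to 135000 TPM in knockout and 91600 to 120000 TPM in control livers. Control replicate 2 had the lowest sum, and control replicates 1 and 3 had 117000 and 120000 TPM. Of the 10 markers 8 were above 0, with a median log2 fold change of 0.41, and 0.21 without control replicate 2. The part of hepatocytes in the Col18a1 values was not tested.

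Col15a1, the other multiplexin, had 15.0, 21.6 and 21.5 CPM in knockout livers, against 23.5, 62.8 and 20 CPM in control livers. Its log2 fold change was -0.87, and -0.16 without control replicate 2. The multiplexins thus had opposite signs, and this was not tested as a difference.

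Col8a1, a short-chain collagen of the subendothelial matrix (ENSMUSG00000068196, GRCm38 chr16:57624258-57754737, minus strand), had 2.34, 2.07 and 2.09 CPM in knockout livers, against 4.95, 6.91 and 3.46 CPM in control livers. The knockout libraries lay within a narrow band below all 3 controls. Col8a1 had a log2 fold change of -1.24 ± 0.30 (SE; edgeR unadjusted p = 0.00298, Benjamini-Hochberg adjusted p = 0.367), and -0.95 without control replicate 2. DESeq2 gave an adjusted p of 0.0526. Its partner Col8a2 had 3 to 12 counts in knockout and 11 to 22 counts in control libraries, and a log2 fold change of -0.97.

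Col12a1, a fibril-associated collagen, had 4.63, 4.88 and 5.66 CPM in knockout livers, against 7.78, 18.1 and 7.22 CPM in control livers. The groups did not overlap, and control replicates 1 and 3 lay close together. Col12a1 had a log2 fold change of -1.13 ± 0.36 (SE; edgeR unadjusted p = 0.0121, Benjamini-Hochberg adjusted p = 0.381), and -0.56 without control replicate 2. Col14a1, the fibril-associated collagen that is far more abundant in TPM (63.0 ± 4.70 in knockout and 82.8 ± 24.1 in control livers, SD, n = 3 each), had 173, 172 and 194 CPM in knockout livers, against 208, 218 and 168 CPM in control livers. Its groups overlapped, with a log2 fold change of -0.14. The transmembrane collagen Col13a1 had 9.15, 8.43 and 7.64 CPM in knockout livers, against 8.89, 6.19 and 8.10 CPM in control livers. Its log2 fold change of 0.12 was -0.07 without a scaling factor. Of the remaining members, the fibril-associated Col16a1 was at -0.47, Col9a3 at -0.37 and the transmembrane Col23a1 at -0.32 in log2 fold change, with overlapping groups. These 3 were at -0.14, 0.02 and 0.18 without control replicate 2.

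**Figure D5:**
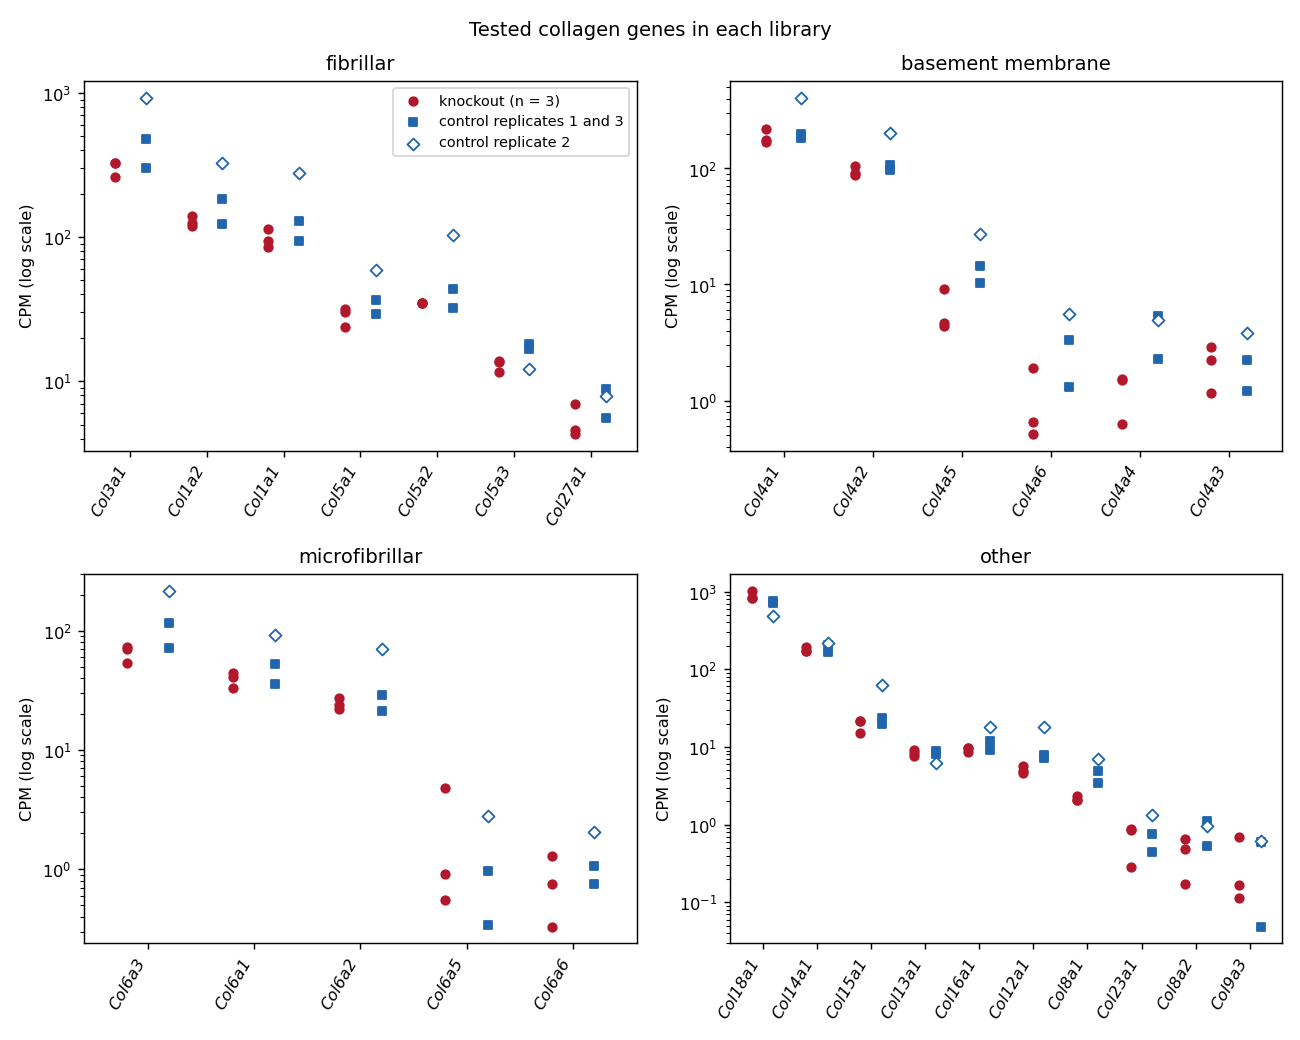
CPM of the 28 tested collagens in each library on a log axis, by class, with knockout libraries as red circles left of control libraries in blue and control replicate 2 as an open diamond. For Col3a1, Col1a1, Col1a2, Col4a1 and Col6a3 the open diamond is far above the other points. For Col4a4, Col4a5, Col8a1 and Col12a1 all 3 knockout points are below all 3 control points. The open diamond is also the highest point for Col4a5, Col8a1 and Col12a1.

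By level, the 13 tested collagens at 10 TPM or more had a median log2 fold change of -0.72, which became -0.16 without control replicate 2. The 7 at 1 to 10 TPM had -0.49 with it and -0.43 without it, and the 8 under 1 TPM had -0.54 and -0.10. Of the 13 abundant genes, 11 had a log2 fold change higher by 0.35 (Col5a1) to 0.71 (Col15a1) without control replicate 2, while that of Col14a1 was higher by 0.08 and that of Col18a1 was 0.29 in place of 0.45.

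Genes that fold, link, induce, bind or break down collagen, or that restrain these steps, are given by list. Of 28 tested genes for folding and crosslinking, 18 were below 0 and the median was -0.33 in log2 fold change, and -0.03 without control replicate 2. Lox, which crosslinks collagen and elastin, had 7.61, 8.49 and 6.32 CPM in knockout livers, against 14.3, 24.0 and 8.83 CPM in control livers, a log2 fold change of -1.07. The groups did not overlap. Sparc, a collagen-binding matricellular protein, was at -0.70 and the lysyl oxidase Loxl2 at -0.58. Lox, Sparc and Loxl2 were at -0.62, -0.38 and -0.26 without control replicate 2. At an unadjusted p under 0.05 the list had 6 lower genes, beside 7% of all genes, and 2 higher ones, beside 3.75%, and no gene of it passed edgeR's adjusted test. The 2 higher genes were named after their values were seen. They were the lysyl hydroxylase Plod1 at 0.34 and the procollagen C-proteinase enhancer Pcolce2 at 1.10, and the groups did not overlap for either. Of the 28 tested genes of the list, 2 had groups that did not overlap with the knockout lower, beside 9.14% of all genes. With the knockout higher there were 2, beside 7.25% of all genes.

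Of 21 tested genes for collagen-inducing signals, 16 were below 0 and the median was -0.35 in log2 fold change, and -0.30 without control replicate 2. The 16 include Skil at -0.35 and Smad7 at -0.01, which restrain TGF-beta signals. There were 10 at an unadjusted p under 0.05, all lower, beside 7% of all genes. Without control replicate 2 there were 4 lower, beside 4.13% of all genes, and with all libraries no gene of the list passed edgeR's adjusted test. Ccn2, a growth factor of the TGF-beta response, had 22.4, 17.9 and 22.5 CPM in knockout livers, against 67.7, 86.4 and 42.0 CPM in control livers, and a log2 fold change of -1.64. DESeq2 called it, with an adjusted p of 9.94e-06, and also Pdgfc, a ligand of the PDGF receptor of stellate cells, at -0.89 with an adjusted p of 0.0305. These were the 2 genes of the list that DESeq2 called, beside 0.902% of all genes. Tgfb2, a TGF-beta ligand, was at -1.21. Ccn2, Pdgfc and Tgfb2 were at -1.38, -0.93 and -1.02 without control replicate 2.

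Of 8 tested collagen receptors 7 were below 0, with a median of -0.31, and -0.19 without control replicate 2. The integrin chain Itga1 was at -0.31, Itga2 at -1.31 and the endocytic receptor Mrc2 at -0.69, and without control replicate 2 they were at -0.28, -0.48 and -0.17. Of 11 tested genes for collagen breakdown 7 were below 0, with a median of -0.14 in both cases. This list mixes proteases with the inhibitors Timp1, Timp2 and Timp3, which were all below 0. Among the proteases Mmp2, Mmp14, Ctsk and Ctsl were below 0, and Mmp8, Mmp13, Ctsb and Mmp9 were above 0. The collagenolytic Mmp2 was at -0.91, and the protease inhibitors Timp3 and Timp2 were at -0.55 and -0.52. Their values without control replicate 2 were -0.53, -0.32 and -0.26. The collagenases Mmp8 and Mmp13, named after their values were seen, were at 0.93 and 0.37, with overlapping groups. No gene of the receptor or breakdown lists passed edgeR's adjusted test.

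Markers of cell types in whole liver are given by their sums. Listed markers of myofibroblasts summed to 353 to 680 TPM in knockout and 667 to 2160 TPM in control livers, and those of stellate cells to 199 to 273 TPM in knockout and 251 to 330 TPM in control livers. Most of the myofibroblast sum was Spp1, at 610, 278 and 338 TPM in knockout and 985, 1995 and 603 TPM in control livers. Control replicate 2 had the highest myofibroblast sum and control replicate 1 the highest stellate cell sum. The medians of log2 fold change were -0.38 for 8 tested myofibroblast markers (7 below 0) and -0.25 for 10 stellate cell markers (8 below 0). Without control replicate 2 they were -0.10 (5 of 9 below 0) and -0.31 (9 of 10 below 0). With all libraries, the myofibroblast markers Spp1, Lox, Postn and Timp1 were at -1.21, -1.07, -0.74 and -0.48. Myl9, Tagln, Acta2 and Tpm2 were at -0.28, -0.26, -0.15 and 0.19. Markers of portal fibroblasts and mesothelium summed to 28.1 to 46.5 TPM in knockout and 35.5 to 118 TPM in control livers, with a median of -0.80 over 7 tested (5 below 0), and -0.31 without control replicate 2, the highest library. Markers of sinusoidal endothelium summed to 370 to 384 TPM in knockout and 312 to 379 TPM in control livers (1 of 10 below 0, median 0.32, and 0.29 without control replicate 2). The 10 pan-endothelial markers summed to 161 to 188 TPM in knockout and 161 to 196 TPM in control livers (1 of 10 below 0, median 0.2). These counts depended on the scaling. With no scaling factor 4 of the 10 sinusoidal markers were below 0, with a median of 0.12. Of the 10 pan-endothelial markers 6 were then below 0, with a median of -0.01.

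The 10 listed proliferation markers summed to 28.2 to 37.3 TPM in knockout and 55 to 165 TPM in control livers, so that the groups did not overlap. All 10 were below 0, with a median of -1.48 in log2 fold change, and -1.10 without control replicate 2. All 10 were lower at an unadjusted p under 0.05, beside 7% of all genes, and DESeq2 called 4 of them, beside 0.902% of all genes. The 10 listed markers of Kupffer cells, the resident macrophages of the liver, summed to 809 to 990 TPM in knockout and 496 to 800 TPM in control livers. All 10 were above 0, with a median of 0.75, and 0.68 without control replicate 2, and 6 were higher at an unadjusted p under 0.05, beside 3.75% of all genes. The Kupffer cell counts also depended on the scaling. With no scaling factor 9 of the 10 were above 0, with a median of 0.56. In that edgeR fit 1 was higher at an unadjusted p under 0.05, beside 134 of 13197 genes. None of the markers of any cell type or of proliferation passed edgeR's adjusted test, and none was at 0 in all libraries. The part of these cell types and of proliferation in the collagen values was not tested.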

How the data were processed

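Polyadenylated RNA of 3 knockout and 3 control livers was sequenced as strand-specific paired-end libraries, per the labels' protocols. The authors deposited 1 table with estimated counts and TPM per gene and library. The submitters' processing notes name RSEM 1.3.3, HISAT2 2.2.1, DESeq2 1.38.3 and fastp 0.23.2, and the build GRCm38. Their roles, the annotation release and the use of strand in counting are not stated in the sources used here. The deposited estimated counts were not normalized, 6.93% of them were not whole, and they were rounded. The deposited TPM, which are scaled for length to a fixed total, gave levels between genes.

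edgeR 4.0.16 compared the groups with its quasi-likelihood test (TMM, filterByExpr, robust fit, Benjamini-Hochberg adjustment at 0.05) over 13197 genes. Correlations between libraries used log2 CPM with a prior count of 2. CPM used TMM-scaled library sizes, except the limits for a count of 0, which used total counts. The SE came from each fold change divided by the root of its F statistic. Alternatives were DESeq2 1.42.0, limma-voom (limma 3.58.1), a replicate block, other scalings and filters, limma on log2(TPM + 1) and log2(TPM + 0.1), and each library left out in turn; DESeq2 with each library left out was added after seeing the data. An exact permutation test of 3 against 3 cannot go below 0.1 and was not used.

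Values in every library are given for the 4 most abundant fibrillar and other members, the 3 most abundant basement membrane and microfibrillar members, and the 5 lower and 5 higher members of smallest p (3 in all were higher). Members named outside the rule were chosen after their values were seen. The members, lists and tests were chosen with earlier results of these data known. Positions came from GENCODE M21, which held all 44 identifiers, and start regions from RefSeq, which held 35 members. Libraries of a group differed by more than sampling noise. The fits were tested on simulated data with 100 genes changed 2-fold and 100 changed 4-fold. The changed genes were drawn from those with a mean of at least 50 counts, so that recovery at lower counts was not tested. Counts were drawn gene by gene, so that no library stood apart as control replicate 2 does. Of the 2-fold changes edgeR recovered 50, DESeq2 68 and limma-voom 40. Of the 4-fold changes they recovered 97, 99 and 94. False calls were 14 of 161 in edgeR, 38 of 205 in DESeq2 and 14 of 148 in limma-voom. Scripts ran in Python 3.11.15 and R 4.3.3, with figures from matplotlib 3.10.9.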

Additional observations from a re-analysis of the deposited data

How the results depend on the processing

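The count of genes called was 0 in edgeR, 119 in DESeq2, 0 to 2 in edgeR with 1 library left out, and, in DESeq2, 241, 140 and 29 without knockout replicate 1, 2 or 3 and 58, 54 and 292 without control replicate 1, 2 or 3. The count of lower collagens at an unadjusted p under 0.05 was 8 in edgeR, 5 in limma-voom, 4 to 17 in edgeR with 1 library left out and 5 to 17 in DESeq2 with 1 library left out (13 without control replicate 1). It was lowest in edgeR without knockout replicate 2 (4) and highest without control replicate 3 (17). With 1 library left out, the median log2 fold change in edgeR ran from -0.87 to -0.18 for all collagens, from -0.91 to -0.25 for fibrillar ones and from -0.78 to -0.10 for the other class.

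Of the 28 tested collagens 23 kept their direction under every alternative set out in the methods that gave them a value, apart from the added DESeq2 fits, and 5 did not. Under the filter of a CPM of at least 1 in 3 libraries 4 had no value: Col8a2, which is among the 23, and Col9a3, Col23a1 and Col6a5. The cause was not tested. With 1 library left out, log2 fold changes ran in edgeR and in DESeq2 from -1.55 to 0.02 and from -1.58 to 0.04 for Col9a3, from -0.01 to 0.24 and from -0.01 to 0.25 for Col13a1, from -0.63 to 0.18 and from -0.62 to 0.18 for Col23a1, from -0.52 to 0.30 and from -0.51 to 0.29 for Col4a3, and from -0.90 to 1.69 and from -0.89 to 1.69 for Col6a5. Col13a1 was also -0.07 with no scaling factor, -0.10 on the log2(TPM + 1) scale and -0.11 on the log2(TPM + 0.1) scale, where Col23a1 was 0.03. In DESeq2 without knockout replicate 2, Col23a1 was 0.06 and Col4a3 0.12. The median of all genes was -0.209 with no scaling factor, -0.198 on the log2(TPM + 1) scale and -0.229 on the log2(TPM + 0.1) scale; relative to it the collagen median was -0.73, -0.43 and -0.50, against -0.67 with TMM. With no scaling factor 1840 genes were lower and 134 higher at an unadjusted p under 0.05, against 924 and 495 with TMM.

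Groups share replicate numbers 1 to 3, and the labels do not say whether the numbers pair the samples. The deviations of same-numbered libraries from their group means correlated at 0.115, -0.00678 and 0.133. Not every library correlated best with its own number. With 3 libraries a group, these correlations cannot tell whether the samples were paired. With a replicate block, 5 genes were called and 5 collagens were lower at an unadjusted p under 0.05. Counts of 11 to 105 limit Col4a4, and members at a few counts a library, such as Col9a3, allow no statement.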
